A study of Mus musculus with 12 samples.

Results

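The genes described here are 42 interferon-stimulated genes and their receptors and regulators, taken by name from a list. No cutoff on their values was used, but members were chosen with earlier results of these data known. All 42 symbols were found among the 18180 genes of the deposited expression table. They were followed across 4 populations of EGFR+ cells that were flow sorted from each of 3 end-stage mouse glioblastomas (GBMs), named T3, T4 and T5. The populations were PDGFRA+, PDGFRA-, GAL1+ and GAL1- cells (labelled PDGFR and Gal1 at GEO, GAL1 being Galectin-1), which gave 3 libraries per population and 12 libraries in all. By the study's methods, the EGFR stain was paired with either PDGFR or Galectin-1. The PDGFRA and GAL1 sorts were thus separate splits of EGFR+ cells, and a population of one can hold the same kinds of cells as a population of the other. All groups shared one model: adult mice in which Cre lentivirus, injected into the brain, switched on human EGFR and a luciferase reporter on a background that included Cdkn2a-/-. The labels give the strain background as mixed from C57Bl/6J, 129S4, FVBN/J and Balb/cJ. The labels name no treatment, and no normal brain library was analysed here.

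Interferons are secreted proteins that cells make when they sense viral or misplaced nucleic acids. Type I interferons bind a receptor of IFNAR1 and IFNAR2 and act through a complex of STAT proteins and IRF9, which binds the interferon-stimulated response element (ISRE), whereas interferon-gamma binds IFNGR1 and IFNGR2 and acts through STAT dimers on GAS elements. The induced genes encode nucleic acid sensors, enzymes that degrade or block RNA, membrane proteins and GTPases that restrict viruses, and the ubiquitin-like ISG15 system. In the brain and its tumors, microglia and macrophages are strong responders.

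Reads per library, recovered from the deposited log2 CPM (read counts scaled to the size of the library), numbered 21728280 to 24117541 in GAL1-, 10768492 to 18522549 in PDGFRA+, 9851175 to 16516049 in PDGFRA- and 13788453 to 17486645 in GAL1+ libraries. The lowest member value in any library was 29 reads, for *Oas3*, and no member was at or under 3 reads, the floor taken for detection, which covers counting error only. The study's account names the sorted cells CD45-, while its methods for this sort name stains for EGFR and PDGFR or Galectin-1 and none for CD45. *Ptprc*, the gene of CD45, was read in every library at a log2 CPM of 3.70 to 9.0. The mean log2 CPM of 12 pan-leukocyte markers was 2.34 to 3.76 in GAL1-, 5.29 to 6.56 in PDGFRA+, 5.41 to 7.58 in PDGFRA- and 7.46 to 7.87 in GAL1+ libraries. The PDGFRA- library of T5 stood apart in its population, with *Pdgfra* at 7.36, below 10.11 and 8.62 in T3 and T4, and the highest leukocyte mean of the PDGFRA- libraries. Comparisons that use it are given with and without it.

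Levels of most members were lowest in GAL1- and highest in GAL1+ cells. The mean log2 CPM over the 42 members was 3.90, 4.09 and 4.37 in the GAL1- libraries of T3, T4 and T5, 4.38, 4.78 and 4.90 in PDGFRA+, 4.78, 4.90 and 5.48 in PDGFRA-, and 5.41, 5.53 and 5.30 in GAL1+. For 32 of 42 members the population means rose in the order GAL1-, PDGFRA+, PDGFRA-, GAL1+, and for 22 in a fit without the PDGFRA- library of T5. *Ifi27* had exactly the reverse order, and the other 9 members had neither. The share of all genes that follow the first order was not counted. Neighbors in that order were compared by the test used below. Between GAL1- and PDGFRA+ cells 10 members (23.8%) differed, where 8.27% of all genes did. Between PDGFRA+ and PDGFRA- cells no member differed, as for all genes (0%). Between PDGFRA- and GAL1+ cells 6 members (14.3%) differed, where 20.1% of all genes did. Lower in PDGFRA- cells were 11.9% of members and 6.91% of all genes. Without the PDGFRA- library of T5, 18 of 42 members and 32.1% of all genes differed.

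**Figure D1:**
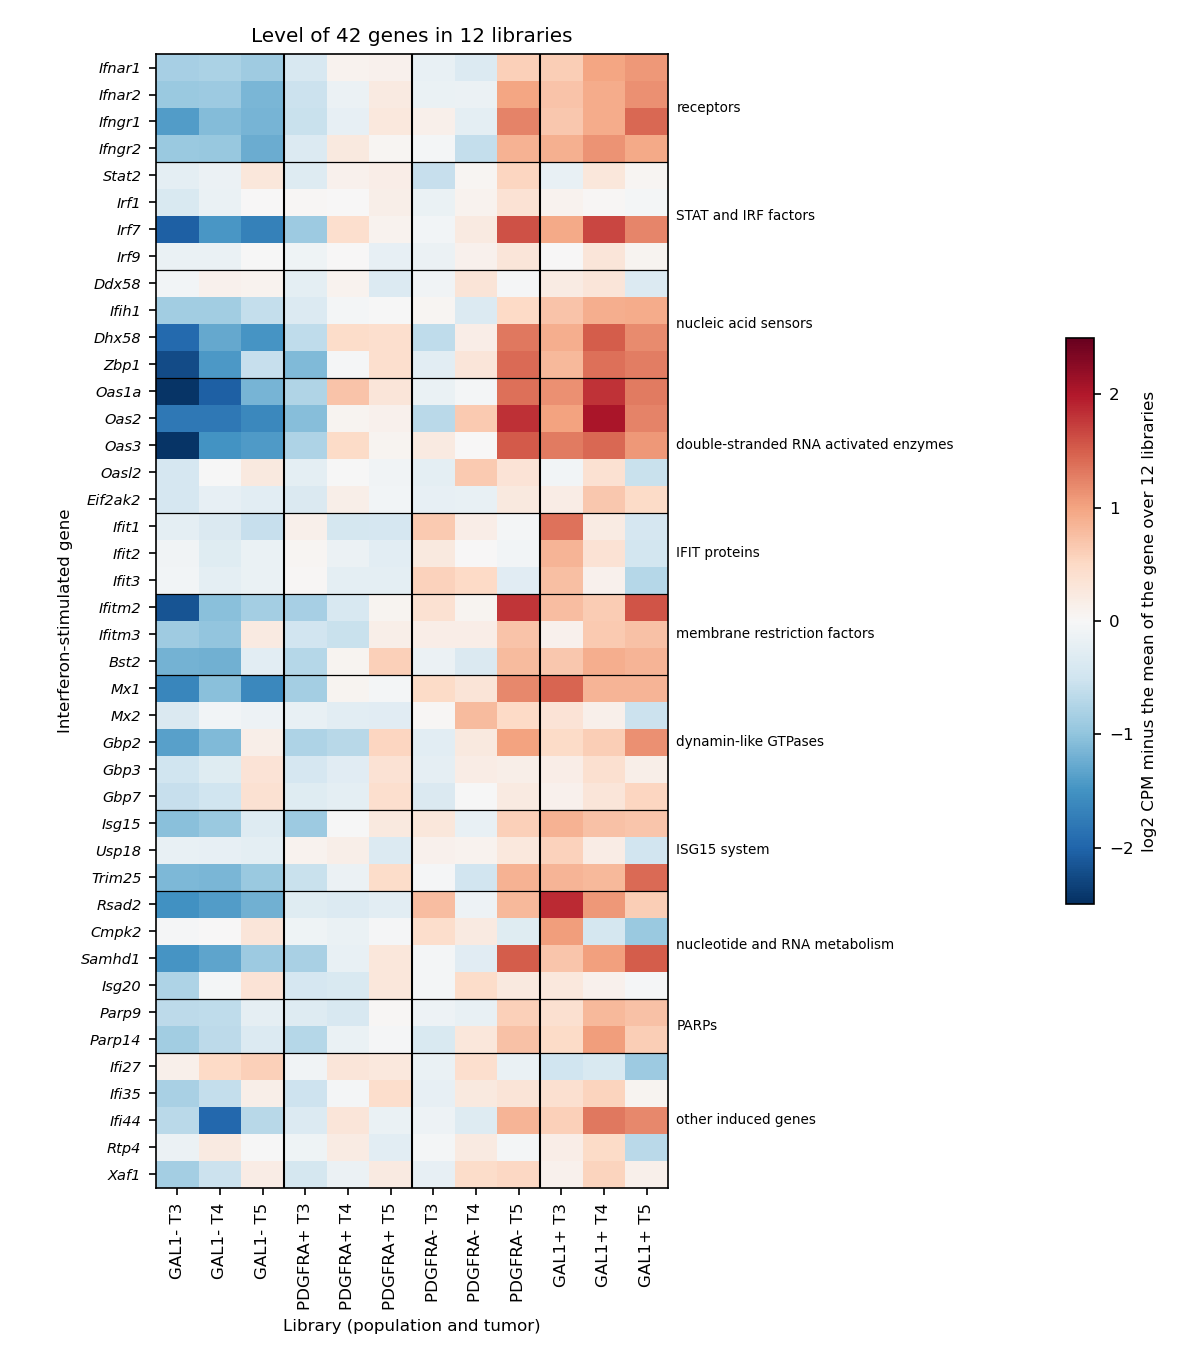
Level of each of the 42 genes (rows, grouped by role) in each of the 12 libraries (columns, by population and tumor), as log2 CPM minus the mean of that gene over the 12 libraries; red is above and blue below the mean. The GAL1- columns are mostly blue and the GAL1+ columns mostly red, the PDGFRA- library of T5 has the highest mean of its population (5.48), and the row of *Ifi27* runs the other way.

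The first comparison asked how GAL1+ cells differ from GAL1- cells of the same tumor. GAL1+ cells had higher levels of 28 of 42 members and a lower level of 1, *Ifi27*, and 13 members were not called. The largest differences were in the OAS enzymes, in *Irf7* and in the sensor *Dhx58*, at log2 fold changes of 2.78 to 3.30. Of all 18180 genes, 58.2% were called in this comparison, 28.9% as higher and 29.3% as lower. The members' share called higher was 66.7%, and their median log2 fold change was 1.24 against −0.03 over all genes. Calls were made with limma, comparing libraries within tumors, at an adjusted p under 0.05 after Benjamini-Hochberg correction across the whole table. In 24 members each GAL1+ library was above each GAL1- library, which was true of 30.1% of all genes. In these bulk libraries, more cells of a type and more RNA per cell cannot be told apart. Since libraries were compared within tumors, each p-value sets a mean difference against a spread. That spread is how far population differences varied among these 3 animals, pooled over all 4 populations.

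The receptors moved together. *Ifnar1*, the signaling chain of the type I receptor, was at a log2 CPM of 6.17, 6.21 and 6.11 in GAL1- cells and 7.62, 7.99 and 8.09 in GAL1+ cells of T3, T4 and T5 (log2 fold change 1.73, SE 0.19, adjusted p = 9.12e-05). *Ifnar2*, its partner chain, was at 4.88, 4.90 and 4.68 against 6.53, 6.74 and 6.95 (1.91, SE 0.24, adjusted p = 0.000139). The GAL1+ libraries of both genes lay above all GAL1- libraries. *Ifngr1*, which binds interferon-gamma, was at 4.27, 4.57 and 4.50 in GAL1- and 6.34, 6.60 and 7.10 in GAL1+ cells, a log2 fold change of 2.23 (SE 0.24, adjusted p = 7.09e-05). *Ifngr2*, the accessory chain, rose by 2.02 (SE 0.31, adjusted p = 0.000414), again with no overlap.

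The transcription factors split. *Irf7*, the IRF that amplifies type I interferon production, was at a log2 CPM of 3.10, 3.68 and 3.46 in GAL1- cells and 6.10, 6.81 and 6.37 in GAL1+ cells (log2 fold change 3.01, SE 0.32, adjusted p = 7.07e-05). The other 3 factors were not called. *Stat2*, which joins IRF9 in the ISRE-binding complex, was at 5.67, 5.78 and 6.19 in GAL1- and 5.73, 6.19 and 5.96 in GAL1+ cells, a log2 fold change of 0.08 (95% interval −0.30 to 0.46, adjusted p = 0.711). *Irf9* differed by 0.24 (95% interval −0.05 to 0.53, adjusted p = 0.141) and *Irf1*, an early interferon-gamma target, by 0.21 (−0.08 to 0.50, adjusted p = 0.188). *Irf7* thus had a log2 fold change of 3.01 (8.07-fold). The 95% intervals of the other 3 factors reached at most a log2 fold change of 0.53.

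Of the nucleic acid sensors, 3 of 4 rose. *Dhx58* (LGP2), a regulator of the RIG-I-like receptors, was at a log2 CPM of 1.36, 2.03 and 1.83 in GAL1- and 4.22, 4.83 and 4.49 in GAL1+ cells (log2 fold change 2.78, SE 0.30, adjusted p = 7.58e-05). *Zbp1*, a Z-form nucleic acid sensor that can trigger cell death, rose by 2.57 (SE 0.24, adjusted p = 4.82e-05) and *Ifih1* (MDA5), a sensor of long double-stranded RNA, by 1.62. *Ddx58* (RIG-I), the sensor of short RNA with a 5′ triphosphate, was not called: it was at 4.82, 5.0 and 4.99 in GAL1- and 5.11, 5.20 and 4.55 in GAL1+ cells, and the groups overlapped (0.02, 95% interval −0.32 to 0.35).

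The OAS enzymes make 2′-5′ oligoadenylates that activate RNase L, and 3 of them held the largest differences of the list. *Oas1a* was at a log2 CPM of 1.23, 1.63 and 2.51 in GAL1- and 4.83, 5.49 and 4.97 in GAL1+ cells (log2 fold change 3.30, SE 0.36, adjusted p = 7.56e-05). *Oas2* was at 1.07, 1.08 and 1.24 against 3.86, 4.90 and 4.10 (3.16, SE 0.41, adjusted p = 0.000186), and *Oas3* at 0.08, 1.05 and 1.12 against 3.85, 3.98 and 3.63 (3.07, SE 0.38, adjusted p = 0.000139). All 3 genes were higher in GAL1+ cells of every tumor with no overlap. *Oasl2*, an OAS-like gene, was not called, at −0.02 (95% interval −0.53 to 0.49): its libraries of T3, T4 and T5 were at 4.67, 5.07 and 5.33 in GAL1- and 5.02, 5.47 and 4.53 in GAL1+ cells. *Eif2ak2* (PKR), the kinase that halts translation on double-stranded RNA, rose by 0.74 (SE 0.14, adjusted p = 0.00148).

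Of the 3 IFIT genes, whose proteins bind viral RNA, 1 was called. *Ifit1* was called at 0.78 (adjusted p = 0.0213). It kept the call in 8 of 12 refits with other settings, where its log2 fold change was 0.37 to 1.09 and its adjusted p up to 0.224 (without T3). *Ifit2* (0.44, adjusted p = 0.0938) and *Ifit3* (0.20, adjusted p = 0.497) were not. All 3 membrane restriction factors rose: *Ifitm2* by 2.34, *Ifitm3* by 1.06 and *Bst2* (tetherin) by 1.69. *Ifitm2* was at a log2 CPM of 1.64, 2.77 and 2.97 in GAL1- and 4.58, 4.44 and 5.39 in GAL1+ cells, and no libraries overlapped. *Bst2*, which holds budding virus at the membrane, was at 3.81, 3.80 and 4.73 against 5.67, 5.90 and 5.84, also without overlap. *Ifitm3* did overlap, since its GAL1- library of T5 (5.73) was above the GAL1+ library of T3 (5.62). Of the dynamin-like GTPases, *Mx1* rose by 2.48, *Gbp2* by 1.51 and *Gbp7* by 0.55, and *Mx2* (0.17) and *Gbp3* (0.38) were not called. The call of *Gbp7* was kept in 8 of 12 refits (0.32 to 0.74, adjusted p up to 0.136 without the tumor block). *Mx1*, a nuclear GTPase that blocks influenza viruses, was at a log2 CPM of 0.98, 1.57 and 1.00 in GAL1- and 4.07, 3.47 and 3.47 in GAL1+ cells. *Mx2*, its cytoplasmic relative in the mouse, was at 3.35, 3.64 and 3.58 against 4.06, 3.83 and 3.18. The groups were apart for *Mx1* and overlapped for *Mx2*.

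In the ISG15 system, *Isg15* itself rose by 1.53 (SE 0.26, adjusted p = 0.000807) and *Trim25*, the ubiquitin ligase that activates RIG-I, by 2.09 (SE 0.20, adjusted p = 5.31e-05). *Isg15* was at a log2 CPM of 3.06, 3.17 and 3.78 in GAL1- and 4.97, 4.83 and 4.79 in GAL1+ cells, and *Trim25* at 5.89, 5.87 and 6.08 against 7.86, 7.82 and 8.42. Neither gene overlapped between the groups. *Usp18*, which removes ISG15 and blocks IFNAR2, was not called, at 0.30 (95% interval −0.17 to 0.78). Of the genes of nucleotide and RNA metabolism, *Rsad2* (viperin) rose by 2.55 (SE 0.29, adjusted p = 9.77e-05) and *Samhd1*, which depletes deoxynucleotides, by 2.31 (SE 0.24, adjusted p = 7.11e-05). *Samhd1* was at 5.04, 5.20 and 5.62 in GAL1- and 7.22, 7.54 and 8.03 in GAL1+ cells. The exonuclease gene *Isg20* (0.28) and *Cmpk2*, a mitochondrial nucleotide kinase (−0.21), were not called. Both PARPs rose, *Parp14* by 1.33 and *Parp9* by 1.15. *Parp14*, a mono-ADP-ribosyltransferase, was at a log2 CPM of 5.40, 5.60 and 5.91 in GAL1- and 6.73, 7.32 and 6.87 in GAL1+ cells. Its groups did not overlap. Among the other induced genes *Ifi44* (2.15), *Ifi35* (0.77) and *Xaf1* (0.66) rose and *Rtp4* (−0.03) was not called. *Ifi35* and *Xaf1* each kept the call in 8 of 12 refits: without T3 their values were 0.54 and 0.51, without T4 0.57 and 0.45, and the adjusted p reached 0.192 and 0.195.

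*Ifi27*, a small mitochondrial and nuclear membrane protein induced by type I interferon, was the exception. It was at a log2 CPM of 5.52, 5.89 and 5.98 in GAL1- cells and 4.89, 5.0 and 4.49 in GAL1+ cells of T3, T4 and T5. Each GAL1+ library was below each GAL1- library, and the log2 fold change was −1.0 (SE 0.17, adjusted p = 0.000869). It was the one member with its highest mean in GAL1- cells.

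**Figure D2:**
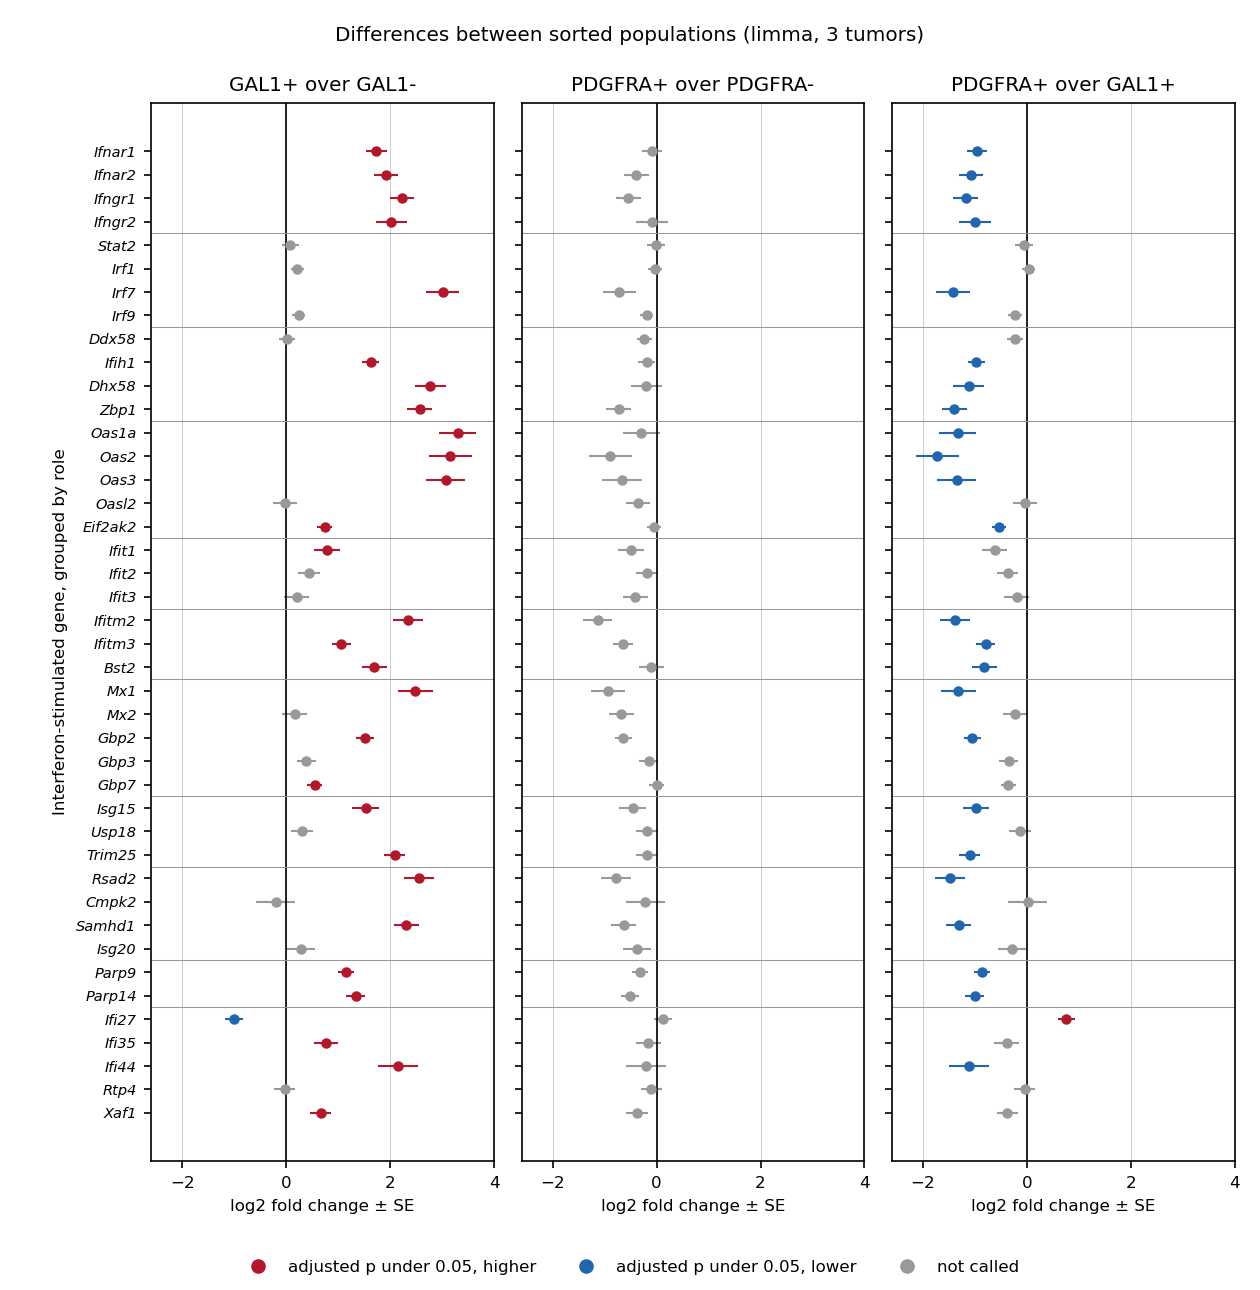
Log2 fold change of each gene (points) with its standard error (bars) in 3 comparisons, GAL1+ over GAL1-, PDGFRA+ over PDGFRA- and PDGFRA+ over GAL1+ cells, with the genes in the same order and grouped by role. In the first panel 28 genes are called higher, in the second none is called and 41 of 42 points lie below 0 (29 without the PDGFRA- library of T5), and in the third 24 genes are called lower; *Ifi27* lies on the other side in all 3.

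Markers of other cells moved with the same sort. All 12 pan-leukocyte markers were higher in GAL1+ than GAL1- cells, by a median log2 fold change of 4.44 (3.80 to 5.19), and none was at 0 in any population. All 8 microglia markers were higher, with library means of 1.69 to 2.91 in GAL1- and 6.22 to 6.89 in GAL1+ cells. All 8 macrophage markers were higher as well, from 0.07 to 1.60 up to 7.24 to 7.31. Endothelial markers were higher in 9 of 9, neutrophil markers in 3 of 6 and T and NK cell markers in 1 of 8, and all 8 markers of oligodendrocyte progenitor-like cancer cells were lower, by a median of 2.82. The largest difference of a member, 3.30 for *Oas1a*, was thus below that of every pan-leukocyte marker. The part of these cell types in the members' differences was not tested.

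Promoter sequence was looked at because most members moved together and some did not. RefSeq promoter windows on GRCm38.p6, 250 bases before to 50 after the start, were matched for 32 of 42 members; the authors' build was mm39. The ISRE core, GAAA and GAAA with any 2 bases between them, on either strand, lay in the windows of 16 of 32 members (50%) and of 3.99% of 27025 genes. The GAS core, TTC and GAA with any 3 bases between them, on either strand, lay in 12 of 32 (37.5%) and 9.55% of all genes. Called and uncalled members both held it: the ISRE core was in 12 of 22 members called higher in GAL1+ cells and in 4 of 10 that were not called (*Ddx58*, *Gbp3*, *Ifit3* and *Stat2*). The stretches below are shown so that members with large differences can be read beside members with smaller ones, called or not. Each runs along the gene's strand, ends before its start, and has the ISRE core in capitals, where TTTC and TTTC with 2 bases between them is the core on the opposite strand and overlapping matches run together.
Oas1a: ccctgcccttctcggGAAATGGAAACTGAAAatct
Oas3: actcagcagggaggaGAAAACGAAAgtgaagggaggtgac
Rsad2: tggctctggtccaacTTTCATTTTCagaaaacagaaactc
Isg15: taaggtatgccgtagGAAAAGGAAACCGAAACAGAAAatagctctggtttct
Gbp2: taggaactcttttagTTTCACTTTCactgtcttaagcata
Ifit1: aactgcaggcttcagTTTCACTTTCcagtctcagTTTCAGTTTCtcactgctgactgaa
Ifit3: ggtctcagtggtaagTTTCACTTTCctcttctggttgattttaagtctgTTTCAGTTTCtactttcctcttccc
Gbp3: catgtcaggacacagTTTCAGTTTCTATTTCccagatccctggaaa
Stat2: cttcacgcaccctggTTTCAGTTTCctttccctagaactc

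These lie at chr5:120907526-120907560 (*Oas1a*, minus strand), chr5:120777710-120777749 (*Oas3*, minus), chr12:26456548-26456587 (*Rsad2*, minus), chr4:156200860-156200911 (*Isg15*, minus), chr3:142620589-142620628 (*Gbp2*, plus), chr19:34640770-34640828 (*Ifit1*, plus), chr19:34583358-34583431 (*Ifit3*, plus), chr3:142559984-142560029 (*Gbp3*, plus) and chr10:128270261-128270300 (*Stat2*, plus). *Isg15* held 3 overlapping matches, and *Ifit1* and *Ifit3* held 2 separate matches each. The first of these 2 matches was the same 10 letters in *Ifit1* and *Ifit3*, and the same letters stood in *Gbp2*. The second was shared by *Ifit1*, *Ifit3*, *Stat2* and *Gbp7* (stretch not shown), and it was the first of the overlapping matches of *Gbp3*. On the opposite strand it also lay in *Oas1a* and *Bst2* (stretch not shown). Among genes with it on either strand, *Ifit1*, *Gbp7*, *Oas1a* and *Bst2* were called higher and *Ifit3*, *Stat2* and *Gbp3* were not. Of the genes with the first, *Ifit1* (0.78) and *Gbp2* (1.51) were called higher in GAL1+ cells, and *Ifit3* (0.20) was not. A match is a description of letters in a window and not a bound site.

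Members that lie near each other on a chromosome were set side by side. By gene order in the RefSeq annotation of GRCm38.p6, which placed 40 of 42 members, 18 members formed 7 clusters with at most 5 protein-coding genes between neighbors. Of these 18, 14 (77.8%) were called higher, against 28 of 42 members in all, and no test was made. In 4 clusters all members were called higher: *Ifnar2*, *Ifnar1* and *Ifngr2* on chromosome 16, *Parp14* and *Parp9* on the same chromosome, *Oas2*, *Oas3* and *Oas1a* on chromosome 5, and *Ifitm2* and *Ifitm3* on chromosome 7. The other 3 clusters held called and uncalled members. *Rsad2* and *Cmpk2* adjoin each other on chromosome 12 with no gene between, and their differences were 2.55 and −0.21. *Rsad2* was at a log2 CPM of 3.61, 3.73 and 3.91 in GAL1- and 6.97, 6.19 and 5.73 in GAL1+ cells of T3, T4 and T5. *Cmpk2* was at 3.29, 3.32 and 3.62 in GAL1- and 4.35, 2.88 and 2.38 in GAL1+ cells, so its GAL1+ libraries lay above, below and below. The difference between the 2 genes was not tested. On chromosome 3, *Gbp2* (1.51) stood next but one to *Gbp3* (0.38), with *Gbp7* (0.55) on the other side.

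**Figure D3:**
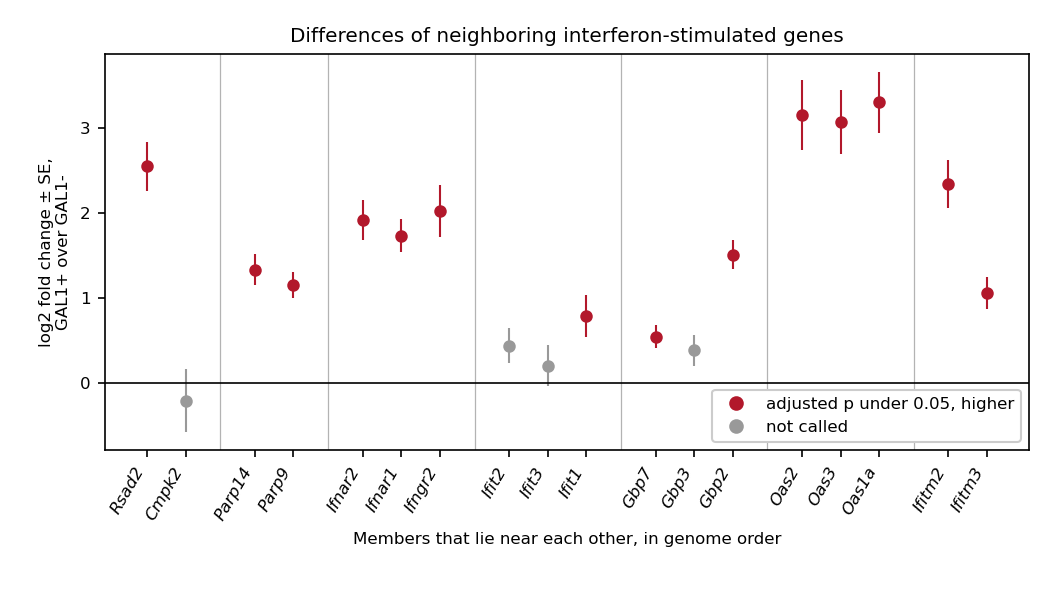
Log2 fold change of GAL1+ over GAL1- cells (points) with its standard error (bars) for the 18 members that lie near another member, in gene order within each of 7 clusters separated by vertical lines; red points are called higher and gray points are not called. The 3 OAS genes lie together near 3, whereas *Rsad2* and its neighbor *Cmpk2* lie at 2.55 and −0.21.

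The tumors did not share one pattern. Of the 13 members that were not called, 13 were higher in GAL1+ than GAL1- cells in T3, 12 in T4 and 1 in T5, where 12 were lower. Members that are not called are in part those whose tumors disagree, so this count is a description; 7.22% of all genes were higher in T3 and lower in T5. Of the 28 members called higher, 28, 28 and 26 were higher in T3, T4 and T5, the exceptions being *Ifi35* (−0.06) and *Xaf1* (−0.05) in T5. The members' median difference was 1.30, 1.66 and 0.96 in T3, T4 and T5. Without T5, 33 members (and 44.4% of all genes, down from 58.2%) were called, among them *Ifit2*, *Ifit3*, *Gbp3* and *Usp18*.

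The levels of T3 and T5 were compared on each side of the sort. In GAL1- cells, 34 of 42 members (81.0%) were higher in T5 than in T3, against 48.9% of all genes. *Zbp1* was at a log2 CPM of 2.48 in T3 and 4.13 in T5, and *Gbp2*, an interferon-gamma responsive GTPase, at 4.56 and 6.06. In GAL1+ cells, 18 of 42 members (42.9%) were lower in T5 than in T3, against 53.5% of all genes. Among these 18, *Ifit1* was at 4.78, 3.63 and 3.01 in T3, T4 and T5, *Ifit2* was at 6.57, 6.08 and 5.25, and *Ifit3* at 5.12, 4.48 and 3.65. *Cmpk2*, *Rsad2* and *Usp18* were likewise highest in T3 and lowest in T5, with *Usp18* at 4.52, 4.12 and 3.47, whereas *Gbp2* was at 6.40, 6.52 and 7.05. In *Ifit1*, *Ifit2* and *Ifit3* the T3 library was above the T5 library in all 4 populations, and in no other member. The T5 library was above the T3 library in all 4 populations for 19 of 42 members. The share of all genes with that pattern was not counted. By the mean over the 4 populations, 78.6% of members and 48.5% of all genes were higher in T5 than in T3. Each tumor gave 1 library per population, so differences between tumors were not tested.

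**Figure D4:**
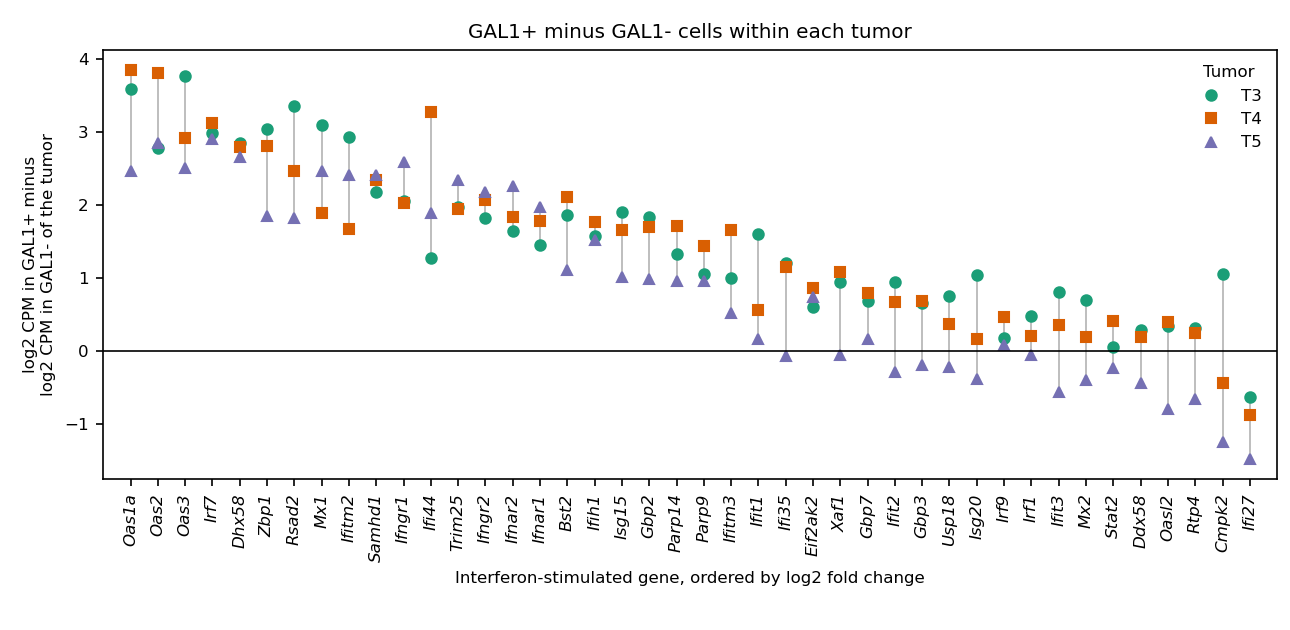
Difference in log2 CPM between GAL1+ and GAL1- cells of the same tumor for each of the 42 genes, ordered by log2 fold change; circles are T3, squares T4 and triangles T5, and gray lines join the 3 tumors. From *Ifit2* on to the right, T5 lies below 0 for all genes but *Irf9*, while T3 lies above 0 for all but *Ifi27*.

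PDGFRA+ and PDGFRA- cells were compared to ask whether PDGFRA sorting separates the same genes. The study reported inflammatory and immune response terms among genes differing in PDGFRA- cells, and its text gives no cutoff for those genes. No member was called, as none of the 18180 genes was (0%). The smallest adjusted p was 0.239 among members and 0.181 over all genes by limma. *Pdgfra* itself was at a log2 CPM of 10.81, 10.13 and 9.95 in PDGFRA+ cells of T3, T4 and T5. In PDGFRA- cells it was at 10.11, 8.62 and 7.36. It is among the 8 oligodendrocyte progenitor-like markers, none of which was called. Of the 42 log2 fold changes 41 were below 0 and 1 (2.38%) above 0, where 47.3% of all genes were above 0, with a median of −0.31 against −0.02. At an unadjusted p under 0.05, 11 members (26.2%) were lower in PDGFRA+ cells and none higher, where 5.74% of all genes were lower and 11.8% differed in either direction. The 5 with the smallest p were *Ifitm2* (−1.14, adjusted p = 0.239), *Gbp2* (−0.64), *Ifitm3* (−0.64), *Zbp1* (−0.73) and *Mx2* (−0.68), each in the same direction in 3 of 3 tumors. Without the PDGFRA- library of T5, 29 of 42 members were below 0 (51.5% of all genes), the median was −0.22 against −0.01, and 3 members were lower at an unadjusted p under 0.05, where 3.55% of all genes were. The smallest adjusted p among members was then 0.68, and *Ifitm2* and *Gbp2* were at −0.87 and −0.66.

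*Ifitm2* was at a log2 CPM of 2.98, 3.40 and 3.87 in PDGFRA+ and 4.18, 3.87 and 5.60 in PDGFRA- cells of T3, T4 and T5, and the groups just did not overlap. *Gbp2* was at 5.15, 5.22 and 6.44 in PDGFRA+ and 5.66, 6.15 and 6.92 in PDGFRA- cells, so the tumors differed more than the sorts. The receptor genes differed by −0.54 (*Ifngr1*) to −0.08 (*Ifngr2*) and the STAT and IRF genes by −0.72 (*Irf7*) to −0.01 (*Stat2*). *Irf7* was at 4.23, 5.55 and 5.22 in PDGFRA+ and 5.08, 5.36 and 6.73 in PDGFRA- cells: it was lower in T3 and T5 and higher in T4. *Ifi27* was the single member above 0, at 0.13 (95% interval −0.26 to 0.51). The 12 pan-leukocyte markers had a median of −0.27 in this comparison, and their part in it was not tested.

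PDGFRA+ and GAL1+ cells are among the populations that the study set against each other. PDGFRA+ cells had lower levels of 24 of 42 members and a higher level of *Ifi27*, and 17 members were not called. Over all genes 38% were called, 17% as lower and 20.9% as higher, and the members' median was −0.85 against 0.01. The members named lower shared the GAL1+ libraries with the comparison above, so the 2 counts are not independent. Without T3, 3 members (7.14%) and 11.6% of all genes were called, and without the tumor block 12 members (28.6%) and 17.3% of all genes.

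The 5 largest differences were in *Oas2* (−1.72, SE 0.41, adjusted p = 0.0113), *Rsad2* (−1.49, SE 0.29, adjusted p = 0.00492), *Irf7* (−1.42, SE 0.32, adjusted p = 0.00865), *Zbp1* (−1.40, SE 0.24, adjusted p = 0.00282) and *Ifitm2* (−1.39, SE 0.28, adjusted p = 0.00593). *Oas2* was at a log2 CPM of 1.79, 2.92 and 2.98 in PDGFRA+ cells, *Rsad2* at 4.81, 4.78 and 4.84, and *Zbp1* at 3.61, 4.67 and 5.12. For all 5 genes each PDGFRA+ library was below each GAL1+ library, as for 22.5% of all genes. All 4 receptors were lower, from −1.18 (*Ifngr1*) to −0.96 (*Ifnar1*), whereas *Stat2* (−0.05), *Irf1* (0.03) and *Irf9* (−0.23) were not called. None of the 3 IFIT genes was called, with values from −0.62 (*Ifit1*) to −0.20 (*Ifit3*). *Ifi27* was at 5.31, 5.70 and 5.66 in PDGFRA+ cells, above each GAL1+ library (0.76, SE 0.17, adjusted p = 0.00894). All 12 pan-leukocyte markers were lower in PDGFRA+ cells, by −1.73 to −1.35, and all 8 oligodendrocyte progenitor-like markers were higher, and their part in these differences was not tested.

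**Figure D5:**
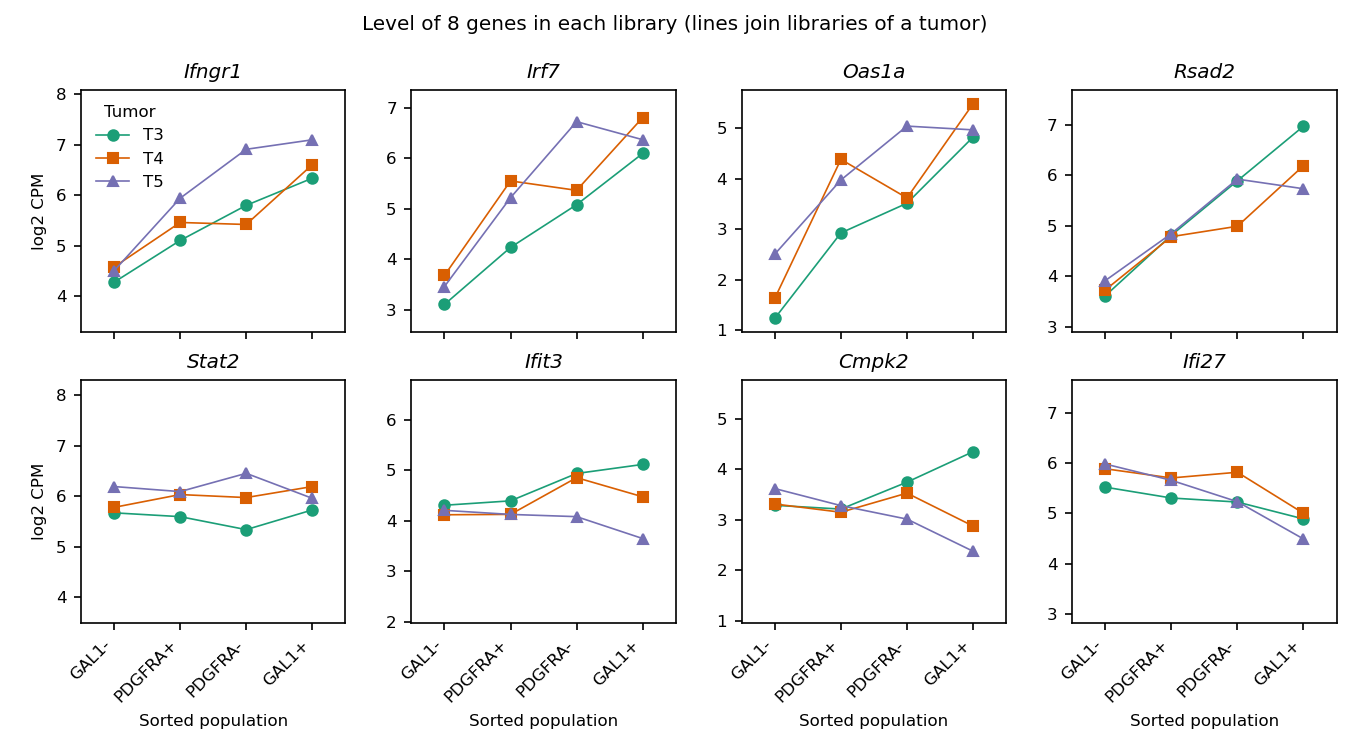
Log2 CPM of 8 genes in each library, by population (x axis) with a line and marker for each tumor; every panel spans the same range of log2 units. *Ifngr1*, *Irf7*, *Oas1a* and *Rsad2* are higher in GAL1+ than GAL1- cells in all 3 tumors, *Stat2* differs by 0.08, *Ifit3* and *Cmpk2* part between T3 and T5 in GAL1+ cells, and *Ifi27* is lower in GAL1+ cells.

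The other population pairs placed PDGFRA+ cells above GAL1- cells in part of the list. In all, 10 members were called, all higher in PDGFRA+ cells: *Ifnar1*, *Ifngr1*, *Irf7*, *Ifih1*, *Dhx58*, *Zbp1*, *Oas1a*, *Oas3*, *Trim25* and *Samhd1*, where 8.27% of all genes were called and 8.26% were higher. The largest were *Oas1a* (1.97, SE 0.36, adjusted p = 0.00751), *Oas3* (1.72, SE 0.38, adjusted p = 0.02), *Dhx58* (1.66, SE 0.30, adjusted p = 0.00749), *Irf7* (1.59, SE 0.32, adjusted p = 0.0127) and *Zbp1* (1.17, SE 0.24, adjusted p = 0.0135). *Oas1a* was at a log2 CPM of 2.93, 4.38 and 3.98 in PDGFRA+ cells, each above the highest GAL1- library. The median over the members was 0.35. No member was called without T3 or without the tumor block, when 0% and 3.37% of all genes were called. All 12 pan-leukocyte markers were higher in PDGFRA+ than GAL1- cells, by 2.31 to 3.51, and their part in it was not tested.

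PDGFRA- and GAL1+ cells differed in 6 members, with 20.1% of all genes called. *Trim25* (−0.91, SE 0.20, adjusted p = 0.0182), *Ifnar1* (−0.87, SE 0.19, adjusted p = 0.0182), *Ifih1* (−0.78, SE 0.16, adjusted p = 0.0142), *Parp9* (−0.55, SE 0.15, adjusted p = 0.0361) and *Eif2ak2* (−0.49, SE 0.14, adjusted p = 0.0366) were lower in PDGFRA- cells and *Ifi27* (0.63, SE 0.17, adjusted p = 0.0333) was higher. Lower calls were 11.9% of members and 6.91% of all genes. The PDGFRA- library of T5 weighed on this comparison: the members' median was −0.61, −0.55 and 0.20 in T3, T4 and T5, and 18 members were called without that library, when the share of all genes called rose from 20.1% to 32.1%. *Irf7*, for example, was at 5.08 and 5.36 in the PDGFRA- libraries of T3 and T4 and 6.73 in that of T5, where GAL1+ cells had 6.10, 6.81 and 6.37. Of the 12 pan-leukocyte markers 3 were called lower in PDGFRA- cells, with a median of −1.29, and their part in it was not tested.

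The GAL1 and PDGFRA sorts were compared as a signed difference, the GAL1+ over GAL1- effect minus the PDGFRA+ over PDGFRA- effect. The second effect was below 0 in 41 of 42 members, so the difference mostly adds the sizes of both effects. It therefore does not test which sort separated the members more. The difference was called in 29 members, above 0 in 28 and below 0 in *Ifi27* (−1.13, SE 0.24, adjusted p = 0.00392), with 51.1% of all genes called and 26.2% above 0. The largest were *Oas2* (4.05, SE 0.58, adjusted p = 0.00055), *Oas3* (3.74, SE 0.53, adjusted p = 0.000531), *Irf7* (3.74, SE 0.45, adjusted p = 0.000331), *Oas1a* (3.60, SE 0.50, adjusted p = 0.000489) and *Ifitm2* (3.48, SE 0.40, adjusted p = 0.000298). The median over the members was 1.75 against 0.02 over all genes, and 28 members were called without the PDGFRA- library of T5, with 44.8% of all genes. The 13 members that were not called ranged from 0.01 (*Cmpk2*) to 0.84 (*Mx2*). The same difference was called in all 12 pan-leukocyte markers, with a median of 4.85, and their part in the members' values was not tested.

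The rest of the pathway was counted from 4 further lists. Of 19 interferon genes 2 were measured. *Ifnb1*, the gene of interferon-beta, had 0, 0 and 2 reads in GAL1- libraries of T3, T4 and T5 and 44, 13 and 16 reads in GAL1+ libraries, with 15, 4 and 8 reads in PDGFRA+ and 27, 2 and 8 in PDGFRA- libraries. No call or fold is given for it, because the GAL1- libraries were at or under the floor of 3 reads. It also passed the authors' filter of 1 CPM in 3 or more samples largely through its GAL1+ libraries. *Ifng*, the gene of interferon-gamma, made by T and NK cells, was not called (−1.18, adjusted p = 0.0895), at 20, 123 and 48 reads in GAL1- and 18.2, 8.14 and 10 reads in GAL1+ libraries.

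Of 13 kinases, STATs, other IRFs and inhibitors, 9 were higher in GAL1+ than GAL1- cells and 4 were not called. The largest were *Ptpn6* (4.49), the phosphatase SHP-1 of blood cells, and *Irf5* (4.35), an IRF of myeloid and B cells. Of 13 upstream sensing genes 12 were higher, led by *Tlr7* (5.46) and *Tlr9* (4.96), the endosomal sensors of single-stranded RNA and unmethylated DNA. Of 48 other interferon-induced genes, 31 were higher, 3 lower and 14 not called, with a median of 2.01. The largest were *Ifi207* (5.04) and *Ifi204* (4.67) of the PYHIN family. The lowest were *Irgm1* (−1.12, SE 0.13, adjusted p = 0.000127) and *Igtp* (−0.82, SE 0.24, adjusted p = 0.0159), immunity-related GTPases induced by interferon-gamma. *Irgm1* was at a log2 CPM of 7.10, 6.71 and 7.42 in GAL1- cells, and like *Ifi27* it was lower in GAL1+ cells of all 3 tumors. All 12 pan-leukocyte markers were higher in GAL1+ than GAL1- cells, by a median of 4.44. Their part in the differences of these lists was not tested.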

How the data were processed

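Total RNA of the sorted cells was made into libraries with the SMARTer Stranded Total RNAseq v3 Pico kit and sequenced. The authors trimmed reads with fastp, aligned them with STAR to mm39, counted exon reads with featureCounts with multi-mapping reads as fractions, filtered at 1 CPM in 3 or more samples, and normalized with TMM and voom. The deposited values are log2 CPM of 18180 genes in 12 samples; tool versions and the strand setting of the counting are not given in the sources used here. Members and lists were chosen with earlier results of these data known.

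Groups and tumor numbers were taken from the sample titles. The 12 samples entered one limma fit (version 3.58.1, R 4.3.3) on populations, with tumors as blocks, a trended prior and two-sided tests; residual and prior degrees of freedom were 6 and 3.49. Same-numbered samples come from 1 animal: after each population's mean was subtracted, the 18 same-tumor pairs of libraries had a mean correlation across genes of 0.486 (0.140 to 0.662), and genes are not independent replicates. Named in full were, per comparison, the 5 called members with the largest change in each direction that agreed in all 3 tumors, or the 5 with the smallest p where fewer were called, the receptors, the STAT and IRF genes, and members against the main direction.

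Reads were recovered by reading each library's lowest value as 0 reads plus the 0.5 that voom adds. Fewer than 60% of recovered values per library were whole within 0.01, so no count test was run. Read counts were whole in all 12 libraries for 2 of 42 members and in fewer than 6 libraries for 14, and values of gene families (*Ifit*, *Ifitm*, *Oas*, *Gbp*, *Mx*) are uncertain where reads are shared. The fit was tested on simulated data. Figures were drawn with matplotlib 3.10.9. Alternatives were no block, a fit to the compared populations alone, no trend, robust estimation, an offset of 1, a filter at a log2 CPM above 1 in at least 3 samples, quantile normalization, median centring, a fold change above 1.5, and leaving out each tumor or the PDGFRA- library of T5. Part of the genotype shared by all groups is not reported here.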

Additional observations from a re-analysis of the deposited data

How the results depend on the processing

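No called member changed direction under any alternative. The 29 members called in GAL1+ over GAL1- cells were each taken through 12 alternatives. The call was kept in 332 of these 348 pairs of a member and an alternative. The 16 losses fell on *Ifit1*, *Gbp7*, *Ifi35* and *Xaf1*. In the same comparison, 4 members that were not called (*Ifit2*, *Ifit3*, *Gbp3* and *Usp18*) were called without T5, and 8 of the 13 uncalled members changed sign in some refit. Without the tumor block (the pairing of libraries by animal) 12 members rather than 25 were called in PDGFRA+ over GAL1+, 0 rather than 10 in PDGFRA+ over GAL1- and 0 rather than 6 in PDGFRA- over GAL1+ cells; it moved no other count by over 1.5 times. A fit to the 2 populations alone called 18 members in PDGFRA+ over GAL1- and 2 in PDGFRA- over GAL1+ cells. eBayes without a trend called 3 in PDGFRA- over GAL1+ cells. Centring on the sample median called 6 in PDGFRA+ over GAL1- and 18 in PDGFRA- over GAL1+ cells. The median over the members in PDGFRA+ over GAL1- cells was 0.26 after quantile normalization and 0.24 after centring, and that of the difference between the sorts was 1.56 after quantile normalization; these scalings moved the median of all genes from −0.02 to −0.15 and −0.13 in PDGFRA+ over GAL1- cells, and at most by −0.16, in PDGFRA+ over GAL1+ cells after centring. Leaving out libraries gave 3 (without T3) to 28 (without T5) members in PDGFRA+ over GAL1+ cells. It gave 0 (without T3) to 16 (without the PDGFRA- library of T5) in PDGFRA+ over GAL1-, with 5 without T4 and 4 without T5. It gave 0 (without T3 or T4) to 19 (without T5) in PDGFRA- over GAL1+ cells, with 18 without the PDGFRA- library of T5, and medians of 1.54 to 1.66 for the difference between the sorts. The cause was not tested. The lowest member value in a library was 29 reads, and each comparison rests on 3 animals.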
